A study of Mus musculus with 12 samples.

Results

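T cells that had recently been in the tumour-draining lymph node (red) were compared with T cells that had not been marked there (green) in tumours 24 h after radiation. Of the 2740 cells kept over all 4 wells, 699 carried an irradiated day 1 hashtag, 434 of them red and 265 green. A cell counted when its top hashtag, by the name in the deposited matrix, had at least 20 unique molecular identifiers (UMIs, 1 per captured molecule) and at least 3 times those of the next, and when it showed no fewer than 500 genes and no more than 10% of its UMIs from mitochondrial genes. Of the 724 barcodes with these tags, 25 missed the gene or mitochondrial limits and 0 missed the hashtag rule.

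The tumours were MC38, a mouse colorectal carcinoma line, grown in mice heterozygous for Kaede (Kaedehet), whose cells carry a fluorescent protein that shifts permanently from green to red under violet light. On day 14 the tumour-draining lymph node was exposed to 405 nm light for 5 min, and the tumour then received 12 Gy of CT-guided radiation. Irradiated tumours (RT D1) and tumours handled alike without radiation (NT D1, 764 cells) were collected on day 15, and unirradiated tumours taken at 72 h (NT D3) entered the clustering, the gene fits and the search for TCR chains in other pools. The 2 wells without RT D1 held tumours given radiation, FTY720 or both and taken at 72 h. Their cells entered the clustering and an alternative fit over all pools. Each condition had 2 replicates, and each replicate was a pool of 4 tumours from 4 mice that gave both colours, so red and green were paired within a pool. T cells were enriched on CD4 and CD8 beads and sorted as live CD90.2+ cells of either colour, so the numbers of red and green cells were set by the sort and are not a ratio in the tumour.

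Red marks residence in the converted node at the time of the light, just before the beam, so red cells in the tumour are those taken to have arrived during the last 24 h. Green cells comprise those already in the tumour and any that arrived from elsewhere, which colour alone cannot tell apart. Ionising radiation breaks DNA, and the kinases that sense the breaks stabilise p53, a transcription factor. Its targets arrest the cell cycle (Cdkn1a), feed back on p53 itself (Mdm2) or promote death through mitochondria (Bax, Bbc3). Lymphocytes are among the more radiosensitive cells of the body.

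The hashtag barcodes are shown because the colour of every cell rests on them, and because 2 sources disagree on them in replicate 2. In replicate 1 the matrix names and the submitters' tag numbers, matched to sequences through that replicate's own names, give the same colours.

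Replicate 1, red: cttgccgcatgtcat

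Replicate 1, green: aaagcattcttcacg

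Replicate 2, red in the matrix: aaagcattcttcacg

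Replicate 2, green in the matrix: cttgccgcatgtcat

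In replicate 2 the matrix attaches the colours to the opposite barcodes, so the labels' tag numbers would call its red cells green and its green cells red. The matrix names are used throughout. Values are given by replicate for most genes described, because the labels' colours would exchange red and green in replicate 2 while leaving replicate 1 as it is. Under the labels' colours 0 genes passed the test in CD8-like and in regulatory T cell (Treg)-like cells.

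The red pools held 143 and 291 cells (replicates 1 and 2, in this order throughout) and the green pools 35 and 230. Median UMIs per cell were 21742 and 22366 in red pools and 19099 and 16675 in green pools. Total UMIs ran from 664718 in green replicate 1 to 6867323 in red replicate 2, so green replicate 1 is the least precise sample. The top tag had a median of 3727 to 7121 UMIs and the next tag 3. The 2 wells shared 0 barcodes, and 27 cells (3.86%) carried 2 or more productive T cell receptor (TCR) beta chains. With 2 pools per colour an exact two-sided permutation test over pools cannot go below p = 0.5, so values of 1 quantity are given without a test.

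The p53 programme separated the colours in each replicate, but by different amounts. Summed over the 42 listed p53 targets, CD8-like cells (clusters named from Cd8a, Cd8b1 and other lineage markers) had median levels of 18.5 and 15.4 UMIs per 10000 in red pools, against 25.8 and 32.6 in green pools. NT D1 pools of either colour lay between 14.0 and 14.9. Taking the 95th percentile of NT D1 CD8-like cells (23.7 per 10000) as a mark, 30 of 89 red cells (33.7%, exact Clopper-Pearson 95% interval 24.0 to 44.5) lay above it in replicate 1 and 6 of 103 (5.83%, 2.17 to 12.2) in replicate 2. In green pools 13 of 21 cells (61.9%, 38.4 to 81.9) and 64 of 99 (64.6%, 54.4 to 74.0) did. At this mark the green shares lay close to each other, though that of replicate 1 rests on 21 cells and has a wide interval. The red shares differed by more than their counting error. The intervals cover counting error only. After thinning every cell to 5000 UMIs, the shares were 28.7% and 4.85% in red pools and 57.1% and 53.1% in green pools, with 9, 0, 0 and 3 shallower cells left out. Between 3 and 8 cells per pool lay within 10% of the mark.

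**Figure D1:**
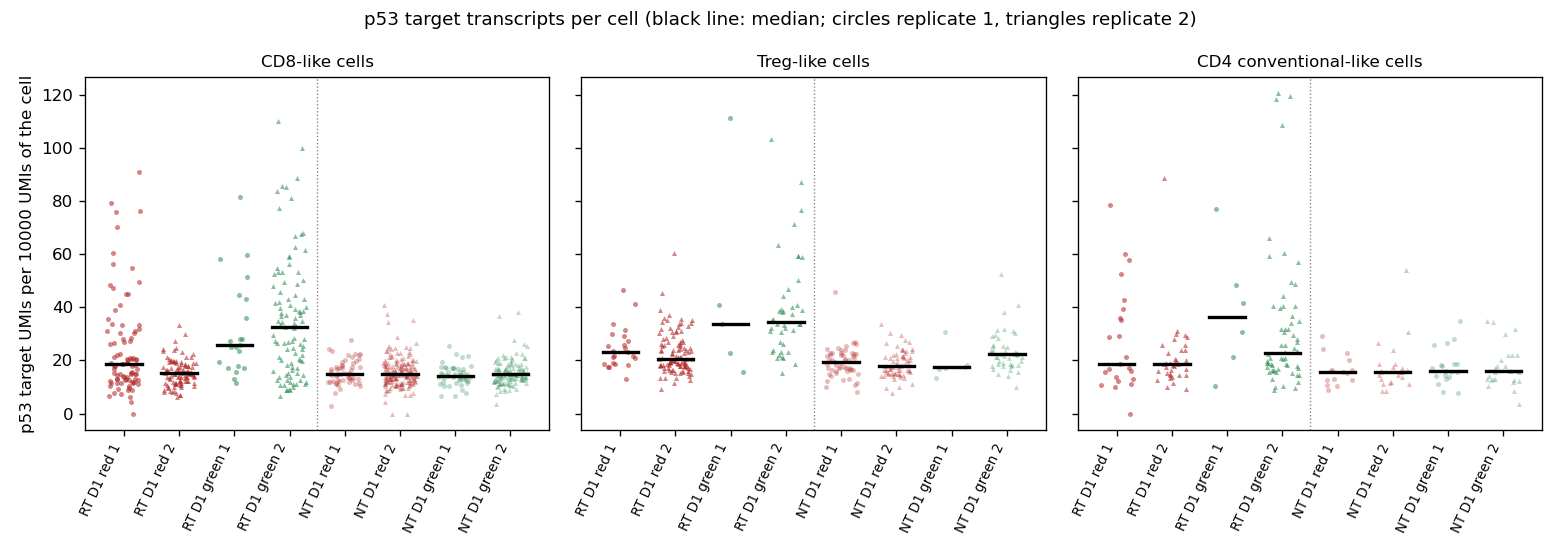
p53 target UMIs per 10000 UMIs in single CD8-like, Treg-like and CD4 conventional-like cells (vertical axis) by tumour pool, red left of green, for RT D1 and NT D1; bars are medians. In CD8-like cells the RT D1 medians are 18.5 and 15.4 in red pools and 25.8 and 32.6 in green pools, and red replicate 1 has cells reaching 91.1.

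Red replicate 1 was mixed. Of its CD8-like cells, 10 sat in cluster 14, a cluster led by the p53 target Phlda3 and by Cox6b2, with a median of 54.5 UMIs per 10000 (33.3 to 91.1). The 16 cells of cluster 9 (Il2, Ccl3, Ifng) had a median of 11.7, and the 13 cells of cluster 8 (Cphx1, Cd7) one of 18.5. Red replicate 2 had no CD8-like cell in cluster 14, whereas 35 green cells of replicate 2 had a median of 53.4 there. Green replicate 1 had none of its 21 CD8-like cells in cluster 14, and its 13 cells of cluster 1 had a median of 28.0. Cells of cluster 14 were put into classes by lineage markers, and without the cell cycle, p53 and interferon clusters 26 of 36 p53 targets were negative in CD8-like sums and 3 passed as lower. The p53 genes helped to form that cluster, so its level is a description of where the high cells lie.

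Treg-like cells repeated the order with closer red pools. Their medians were 23.2 and 20.7 in red pools, against 33.9 and 34.5 in green pools. Above the NT D1 mark for this class (30.4) lay 4 of 23 (17.4%) and 21 of 106 (19.8%) red cells, and 3 of 5 (60%) and 30 of 42 (71.4%) green cells. In CD4 conventional-like cells, 8 of 23 (34.8%) and 1 of 35 (2.86%) red cells lay above their mark (31.8), against 3 of 6 (50%) and 20 of 60 (33.3%) green cells. In all 3 classes and both replicates the red share was below the green share of the same pool. In NT D1 this order was present too for Treg-like cells, at 1 of 53 and 1 of 69 cells in red and 1 of 6 and 6 of 46 cells in green pools, and for CD4 conventional-like cells, at 0 and 4.17% in red and 5.26% and 11.1% in green pools. NT D1 CD8-like cells had the opposite order, at 3.64% and 7.34% in red and 2.04% and 4.10% in green pools. The 5.83% of RT D1 red replicate 2 in that class lies within these NT D1 shares.

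The same order held for single genes over all cells of a sample. Cdkn1a, the p21 cell cycle inhibitor, had 109 and 74.1 UMIs scaled to a common library size (CPM) in red cells and 172 and 220 CPM in green cells (NT D1: 31.6 and 33.5 in red, 13.6 and 39.2 in green). Phlda3, which restrains AKT signalling, had 27.0 and 3.64 CPM in red cells and 55.7 and 55.4 CPM in green cells, while no NT D1 sample exceeded 2.81 CPM. For Cdkn1a red cells of both replicates thus stood above NT D1 and below green. For Phlda3 red replicate 1 stood between NT D1 and green, while red replicate 2, with 25 UMIs, lay near NT D1. Red replicate 1 was nearer to green for both genes. Bax had 266 and 166 CPM in red cells and 411 and 364 CPM in green cells, and Ccng1, a cyclin G induced by p53, had 215 and 116 CPM in red cells and 313 and 327 CPM in green cells. Mdm2, the p53 ubiquitin ligase, had 89.5 and 70.2 CPM in red cells against 102 and 104 CPM in green cells. These sums mix classes and do not separate fewer responding cells from fewer UMIs per cell. In CD8-like cells Phlda3 was found in 21 of 89 and 3 of 103 red cells and in 9 of 21 and 45 of 99 green cells. Cdkn1a was found in 38 of 89 and 20 of 103 red cells and in 9 of 21 and 53 of 99 green cells of that class.

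For tests, UMIs were summed per pool, colour and class and fitted with edgeR with the pool as a block, at an adjusted p (Benjamini-Hochberg over all genes tested) of 0.05. In CD8-like cells no p53 target passed: 0 of 37 measured, against a background of 0.125% of all genes tested. Of the 37, 32 had negative fold changes (50.8% of all genes), the median log2 red over green was -0.62 (all genes -0.01), and 21 had both red sums below both green sums, which 19.2% of all genes did. At an unadjusted p under 0.05 the count was 17, against 15.4% of all genes. By pool the list's median log2 ratio (of CPM plus 10) was -0.25 and -0.63, and 0.04 and -0.01 in NT D1. Cdkn1a had 102 and 28.8 CPM in red sums and 161 and 171 CPM in green sums, a log2 fold change of -1.65 ± 0.46 (SE) that missed the threshold (edgeR adjusted p = 0.153). Bax, at 299 and 163 CPM in red and 423 and 412 CPM in green sums, also missed it (edgeR adjusted p = 0.108). Without RT D1 replicate 1, 9 p53 targets passed and the list's median was -1.11; without replicate 2 none passed and it was -0.34.

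Treg-like cells gave 3 p53 targets that fell in red cells, of 33 measured, beside a background of 0.771% of all genes lower. Cdkn1a had 90.8 and 131 CPM in red sums and 210.1 and 347 CPM in green sums (log2 fold change -1.34 ± 0.30, edgeR adjusted p = 0.0222). Bax had 199 and 209.6 CPM in red and 450.2 and 401 CPM in green (-1.03 ± 0.25, edgeR adjusted p = 0.0388). Dcxr, a carbonyl reductase, had 21.9 and 13.6 CPM in red and 120.1 and 62.7 CPM in green (-2.29 ± 0.52, edgeR adjusted p = 0.0258). For each of the 3 the red and green sums did not overlap. Over the list 27 of 33 were negative (47.8% of all genes), the median was -0.63 (all genes 0.03), and 22 had both red sums below both green sums (17.6% of all genes). Bax and Dcxr lost the call when either RT D1 pool was left out, and Cdkn1a without replicate 2.

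In CD4 conventional-like cells 0 of 29 measured p53 targets passed (7 of 7491 genes, 0.0934%, did), and 24 were negative (48.6% of all genes) with a median of -0.42 (all genes 0.02). Cdkn1a was at 247 and 200.2 CPM in red sums and at 228 and 305 CPM in green sums, which overlap; in NT D1 it was at 33.4 and 68.9 CPM in red and 29.7 and 57.0 CPM in green sums. In this class both colours therefore stood above NT D1 for Cdkn1a. Leaving out RT D1 replicate 2 left 16 of 30 negative and a median of -0.05. None of the 3 classes had a p53 target whose red to green difference in RT D1 passed the test against that in NT D1, although the median of that difference was -0.84 in CD8-like cells. Across the alternatives with the matrix colours the sign of each list median stayed negative; with the labels' colours in replicate 2 it was 0.44 in CD8-like, 0.25 in Treg-like and 0.35 in CD4 conventional-like cells.

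The shares of CD8-like, Treg-like and naive cells overlapped between red and green pools. Those of CD4 conventional-like cells did not. CD8-like cells made up 62.2% (53.8 to 70.2) and 35.4% (29.9 to 41.2) of red pools and 60% (42.1 to 76.1) and 43.0% (36.6 to 49.7) of green pools. Treg-like cells, marked by Foxp3, made up 16.1% (10.5 to 23.1) and 36.4% (30.9 to 42.2) of red pools and 14.3% (4.81 to 30.3) and 18.3% (13.5 to 23.9) of green pools. The red excess of Treg-like cells was 1.8 points in replicate 1 and 18.2 points in replicate 2 (9.98 ± 11.6, SD, n = 2), so it was smaller than the spread between replicates. CD4 conventional-like cells made up 16.1% and 12.0% of red pools and 17.1% and 26.1% of green pools, a difference of -7.56 ± 9.19 points (SD, n = 2). Both red shares lay below both green shares, with differences of -1.06 points in replicate 1 and -14.1 in replicate 2. Naive CD4-like cells were 4.12% of red and 0.435% of green cells in replicate 2; in replicate 1 there were 0 of 143 red and 0 of 35 green cells, which allow up to 2.10% and 8.57%. Naive CD8-like cells were 0.699% and 4.12% of red pools and 0 and 1.74% of green pools. The bead enrichment and the sort act on these shares. In NT D1 the Treg-like difference was 33.8 and 0.614 points, so the replicate with the larger excess was not the same. The CD4 conventional-like difference in NT D1 was -9.66 and -4.76 points, the same order as in RT D1.

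**Figure D2:**
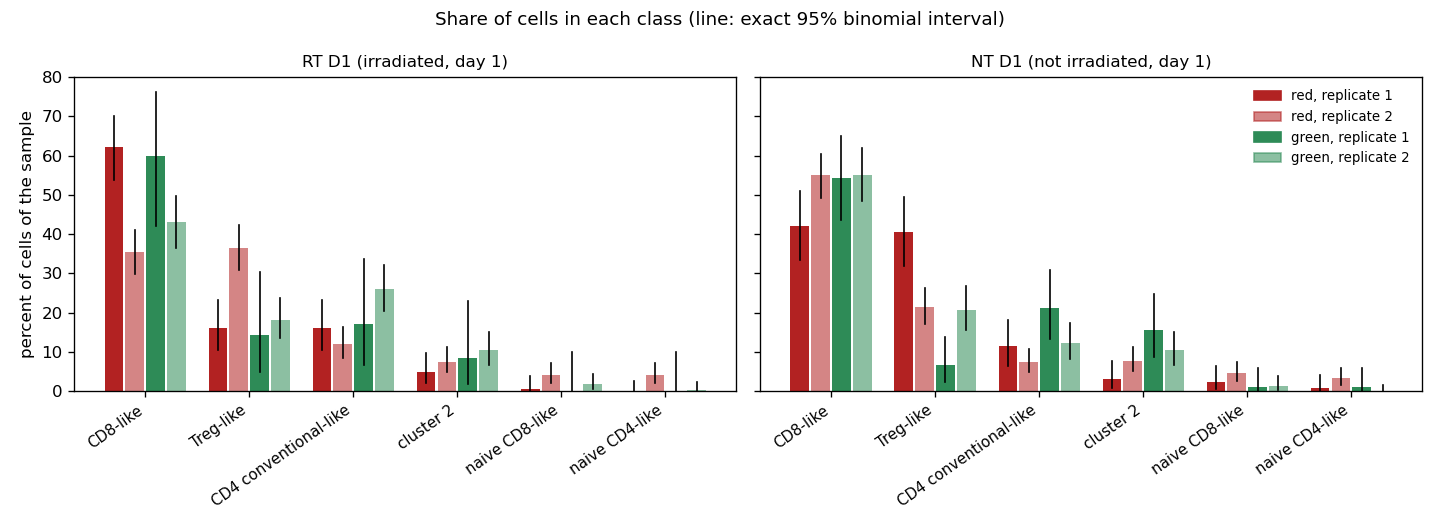
Share of cells in each class (percent, vertical axis) per pool, red left of green, in RT D1 and NT D1, with exact 95% binomial intervals. CD8-like shares are 62.2% and 35.4% in RT D1 red pools and 60% and 43.0% in green pools, and replicates of 1 colour differ as much as the colours do.

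Within a class the colours sat in different clusters, which bears on the gene comparisons below. Red CD8-like cells were held mostly by cluster 8 (25.5%), cluster 9 (21.9%) and cluster 3 (16.7%, Gzmk and Ccl5), and green ones by the p53-led cluster 14 (29.2%), cluster 3 (25%) and cluster 1 (20%, Styk1 and Klrh1). These shares pool the replicates: all 35 green CD8-like cells of cluster 14 came from replicate 2, and 13 of the 21 green ones of replicate 1 sat in cluster 1. Red Treg-like cells were held by cluster 0 (74.4%, led by Areg, Ccr3 and Foxp3) and cluster 15 (20.2%, with Tnfrsf4), and green ones by cluster 4 (70.2%, with Il10) and cluster 0 (25.5%). Cluster 2 (Klra6, Eomes), which did not meet the naming rule, held 4.90% and 7.56% of red pools and 8.57% and 10.4% of green pools. It raised 9 naive CD8-like and 0 CD8-like markers, and the naive CD8-like shares above leave it out. Cluster 6 (Ramp3, Cd40lg) held 58.6% of red and 33.3% of green CD4 conventional-like cells. These names come from the same cells and are no test of the colours.

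In CD8-like cells, 11 of the 10407 genes tested were higher in red (0.106%) and 2 lower (0.0192%). Ccl4, an inflammatory chemokine, had 6544 and 10699.5 CPM in red sums and 1549 and 1385 CPM in green sums (log2 fold change 2.52 ± 0.20, edgeR adjusted p = 0.0172). Xcl1, which draws cross-presenting dendritic cells, had 4310.4 and 4825 CPM in red and 333 and 470.3 CPM in green sums (3.52 ± 0.41, edgeR adjusted p = 0.0393). The red and green sums did not overlap for either gene, and NT D1 had the same order, at 6332 and 10214 CPM in red and 525 and 1092 CPM in green for Ccl4. Ccl4 was found in 67 of 89 and 79 of 103 red cells and in 19 of 21 and 63 of 99 green cells. Xcl1 was found in 29 of 89 and 53 of 103 red cells and in 7 of 21 and 26 of 99 green cells. In replicate 1 neither share was thus higher in red, and a single red cell held 3255 of 9287 Xcl1 UMIs.

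Cd160, an inhibitory and costimulatory receptor that binds HVEM, had 214 and 294 CPM in red and 68.5 and 80.8 CPM in green sums (1.78 ± 0.18, edgeR adjusted p = 0.0273), and Cd7, a T and NK cell surface protein, had 137 and 257 CPM in red and 12.2 and 32.8 CPM in green sums (3.07 ± 0.33). Rasgrp2, which activates the integrin regulator Rap1, had 55.2 and 81.9 CPM in red and 9.79 and 24.0 CPM in green sums (1.92 ± 0.25). Eea1, an early endosome tether, had 287 and 258 CPM in red and 103 and 92.5 CPM in green sums (1.48 ± 0.15). Srm (spermidine synthase, 1.81 ± 0.23), Mir155hg (the miR-155 host transcript, 1.48 ± 0.17) and Utf1 (3.58 ± 0.39) also rose, Utf1 at only 30.6 and 50.3 CPM in red sums. Each of these had edgeR adjusted p values between 0.0273 and 0.0486 and non-overlapping sums, as 22.5% of all genes did with red above. The same sums gave the calls, so the lack of overlap is no separate support.

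Il3 was called on few cells. All of its 644 red UMIs came from 2 cells in each red pool, 1 of which held 430 of 481 UMIs in replicate 1 and 157 of 163 in replicate 2, while green sums had 0. Against a floor of 3 counts over the green cells this is at least 101-fold higher in red, in 4 cells. The genes lower in red were Inpp4b, a phosphoinositide phosphatase, at 1014 and 706 CPM in red and 1776 and 1195 CPM in green sums (-0.78 ± 0.10), and Itih5, at 18.1 and 3.12 CPM in red and 71.0 and 15.7 CPM in green sums (-2.10 ± 0.27). Both had an edgeR adjusted p of 0.0486, and the Itih5 sums overlap between the colours.

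**Figure D3:**
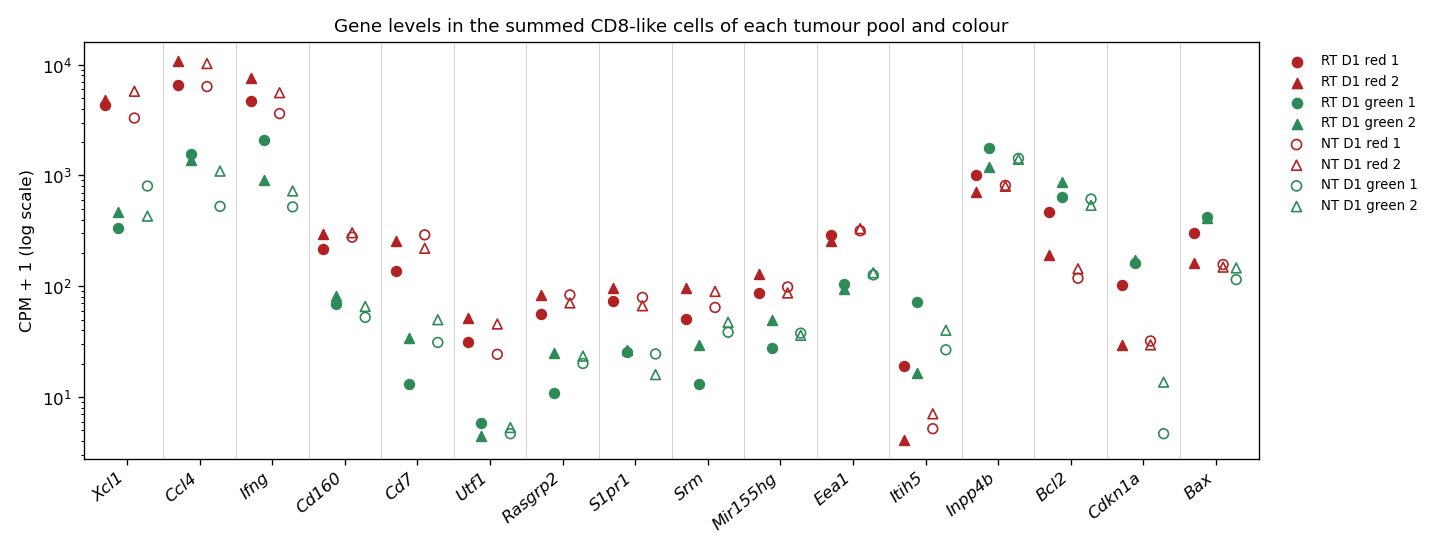
CPM plus 1 (log axis) of named genes in the CD8-like sums of each pool, red left of green, in RT D1 and NT D1; each point is 1 pool. Ccl4 and Xcl1 lie higher in both red sums than in both green sums of RT D1, whereas Cdkn1a shows red replicate 2 at 28.8 and green sums at 161 and 171.

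S1pr1, Ifng and Egr2 missed the threshold. S1pr1, the receptor that lets lymphocytes leave nodes, had 72.9 and 96.2 CPM in red and 24.5 and 25.4 CPM in green sums (1.81 ± 0.25, edgeR adjusted p = 0.055). Ifng had 4685 and 7562 CPM in red and 2089.6 and 912 CPM in green sums (2.12 ± 0.37, edgeR adjusted p = 0.0675), and Egr2 70.1 and 84.4 CPM in red and 26.9 and 6.85 CPM in green sums (2.76 ± 0.56, edgeR adjusted p = 0.0851). The 3 genes passed under DESeq2. Bcl2, which opposes death, was at 466 and 191 CPM in red and 634 and 873 CPM in green sums (-1.34 ± 0.37, edgeR adjusted p = 0.15). Pdcd1 had 405 and 305 CPM in red and 553 and 221 CPM in green sums (0.02 ± 0.20), and Lag3 252 and 199 CPM in red and 379 and 143 CPM in green sums (-0.04 ± 0.24). For both genes red was below green in replicate 1 and above it in replicate 2.

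By list, 2 of 20 measured cytokine and chemokine genes rose in red CD8-like cells (Xcl1 and Ccl4), with a median of 1.54 over the list and pool medians of -0.03 and 1.37, and 1 of 20 exhaustion and inhibitory receptor genes rose (Cd160). The early TCR response list had 0 of 21 called and a median of 0.52, with pool medians of -0.19 and 1.19, so the replicates pointed opposite ways. The interferon-stimulated list had 0 of 29 called and pool medians of 1.34 and -1.0, again opposite. Glycolysis and hypoxia genes had 0 of 20 called but 20 of 20 positive (49.2% of all genes), with a median of 0.35. The remaining lists had 0 calls and medians from -0.22 for cytotoxic effectors to 0.68 for chemokine and egress receptors. Across the 10407 genes, log2 ratios of the 2 RT D1 pools correlated at Pearson r = 0.154, against 0.613 in NT D1. With the labels' colours in replicate 2 these become -0.154 and -0.613. Genes are not independent replicates, and which source of colours is right was not tested. Without RT D1 replicate 2 only Il3 and Ccl4 of the named calls were left, and without either NT D3 pool 0 genes passed.

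In Treg-like cells, 71 of 8820 genes rose in red (0.805%) and 68 fell (0.771%), 1.58% in all. Myc, Nr4a1 and Actb were among those that rose, and Lag3, Bcl2, Cxcr6 and Jun among those that fell. DESeq2 called 62 genes in this class, against 82 in CD8-like cells. Foxp3 itself was at 670.2 and 869 CPM in red and 675 and 853 CPM in green sums (0.01 ± 0.19), so both colours carried the defining gene at like levels. The green replicate 1 sum rests on 5 cells and 64180 UMIs, where 1 UMI weighs more than in the other RT D1 sums of this class.

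Among early TCR response genes 5 of 20 rose and 2 fell, with a median of 0.54. Nr4a1, an orphan nuclear receptor induced by TCR signals, had 536 and 848 CPM in red and 150.1 and 334 CPM in green sums (1.48 ± 0.29, edgeR adjusted p = 0.00864). Myc, a driver of cell growth, had 136 and 124 CPM in red and 0 and 14.6 CPM in green sums (3.29 ± 0.56, edgeR adjusted p = 0.00348). Irf8 (346 and 492 CPM in red, 75.0 and 233 CPM in green), Nfkbid (249 and 411 CPM in red, 60.0 and 199.8 CPM in green) and Egr3 rose too. Jun, an AP-1 subunit, fell to 109.6 and 116 CPM in red against 450.2 and 327 CPM in green sums (-1.70 ± 0.32, edgeR adjusted p = 0.00673), and Egr1 fell by 1.43 on the log2 scale. The members of this list thus moved both ways, and Jun also belongs to the list of genes that tissue dissociation induces, of which the chaperones Hspd1 and Hsp90aa1 rose (16 measured, median 0.63).

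Among the 10 largest increases, Srm had 62.6 and 41.6 CPM in red and 0 and 1.46 CPM in green sums, Tsr1, a ribosome assembly factor, 64.2 and 57.5 CPM in red and 0 and 10.2 CPM in green sums, and Cdca7, a Myc-responsive gene, 45.4 and 26.3 CPM in red and 0 and 1.46 CPM in green sums. Pus7, a pseudouridine synthase, had 40.7 and 29.0 CPM in red and 0 UMIs in green, at least 7.45-fold higher against a floor of 3 counts over the green cells. Actg2, Gm30211, Rapgef5 and Timm8a1 complete the 10 largest increases. In red replicate 1, of 23 cells, a single cell per gene held 20 of 40 Srm, 20 of 29 Cdca7 and 15 of 26 Pus7 UMIs. It held 18 of 21 for Gm30211, 23 of 30 for Egr3 and 42 of 87 for Myc, but 15 of 41 for Tsr1. Srm, Pus7 and Gm30211 were found in 3 cells each there, and Srm in 21 of 106 cells of red replicate 2. Outside the 10 largest increases, and chosen after their values were seen, Actb and Actg1, the cytoplasmic actins, had the lowest adjusted p: Actb was at 14569.7 and 16041 CPM in red and 6528 and 6620.4 CPM in green sums (1.22 ± 0.12, edgeR adjusted p = 5.76e-06). Of the glycolysis and hypoxia list 1 of 19 rose, Ldha (0.90 ± 0.18), and 18 of 19 were positive (52.2% of all genes), with a median of 0.55. All 71 genes that rose had both red sums above both green sums, as did 25.7% of all genes. The calls were made on these same sums, so the lack of overlap is no separate support.

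Of the exhaustion and inhibitory receptor list, 4 of 16 measured genes fell in red Treg-like cells, with a median of -0.55. Lag3, which binds MHC class II, had 84.6 and 22.2 CPM in red and 240.1 and 299 CPM in green sums (-2.86 ± 0.42, edgeR adjusted p = 0.000985). Pdcd1, which encodes PD-1, had 40.7 and 39.4 CPM in red and 120.1 and 137 CPM in green sums (-1.73 ± 0.39, edgeR adjusted p = 0.0256). Cd200r1 (-2.27 ± 0.37) and Rgs16 (-1.43 ± 0.34), a regulator of G protein signalling, fell as well. The 4 genes had no overlap between the colours, but in green replicate 1 a single cell held 16 of 16 Lag3, 7 of 8 Pdcd1 and 14 of 15 Rgs16 UMIs. In NT D1, Lag3 had the same order, at 17.0 and 57.7 CPM in red and 249 and 314 CPM in green sums.

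Cxcr6, the receptor for the chemokine CXCL16, had 121 and 66.5 CPM in red and 540.3 and 229 CPM in green sums (-1.94 ± 0.32, edgeR adjusted p = 0.00263), and Itga4, an integrin subunit, had 37.6 and 37.6 CPM in red and 105 and 214 CPM in green sums (-2.23 ± 0.43). Bcl2 had 17.2 and 14.9 CPM in red and 165 and 89.0 CPM in green sums (-2.80 ± 0.53, edgeR adjusted p = 0.00716), so with Bax 2 of 13 BCL2 family genes fell, 1 that opposes and 1 that promotes death. Maf (-0.89 ± 0.18), a transcription factor of Il10-producing cells, and Ifngr1 (-1.0 ± 0.18) fell too. Cxcr6 was the only call among 16 chemokine and egress receptors, Itga4 among 15 adhesion genes and Ifngr1 among 26 costimulation and cytokine receptors. Gzmb, a granzyme that also stands with Maf among the 25 Treg effector genes, rose to 3578 and 2862 CPM in red against 1786 and 1859 CPM in green sums (0.80 ± 0.19, edgeR adjusted p = 0.028).

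Of the 10 cytotoxic effector genes measured, 1 rose (Gzmb) and 3 fell, with a median of -0.91. The 3 that fell rested on few cells. Ccl5 had 28.2 and 211 CPM in red and 1276 and 395 CPM in green sums, Nkg7 164 and 315 CPM in red and 1741 and 496 CPM in green sums, and Prf1 7.83 and 19.9 CPM in red and 255 and 42.3 CPM in green sums. In green replicate 1 a single cell of the 5 held 82 of 85 Ccl5 UMIs and 99 of 116 Nkg7 UMIs. In the same sum, 1 cell per gene also held 7 of 7 Itga4, 10 of 11 Bcl2, 7 of 8 Dcxr, 10 of 11 Egr1 and 29 of 36 Cxcr6 UMIs. The calls of Ccl5, Nkg7 and Prf1 were lost when RT D1 replicate 1 was left out. Pcsk1, Lilrb4b, Def8, Gda, Slc37a2 and Plac8 complete the 10 largest decreases, and 58 of the 68 genes that fell had no overlap between the colours (17.6% of all genes). That too is no separate support, since the same sums gave the calls.

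**Figure D4:**
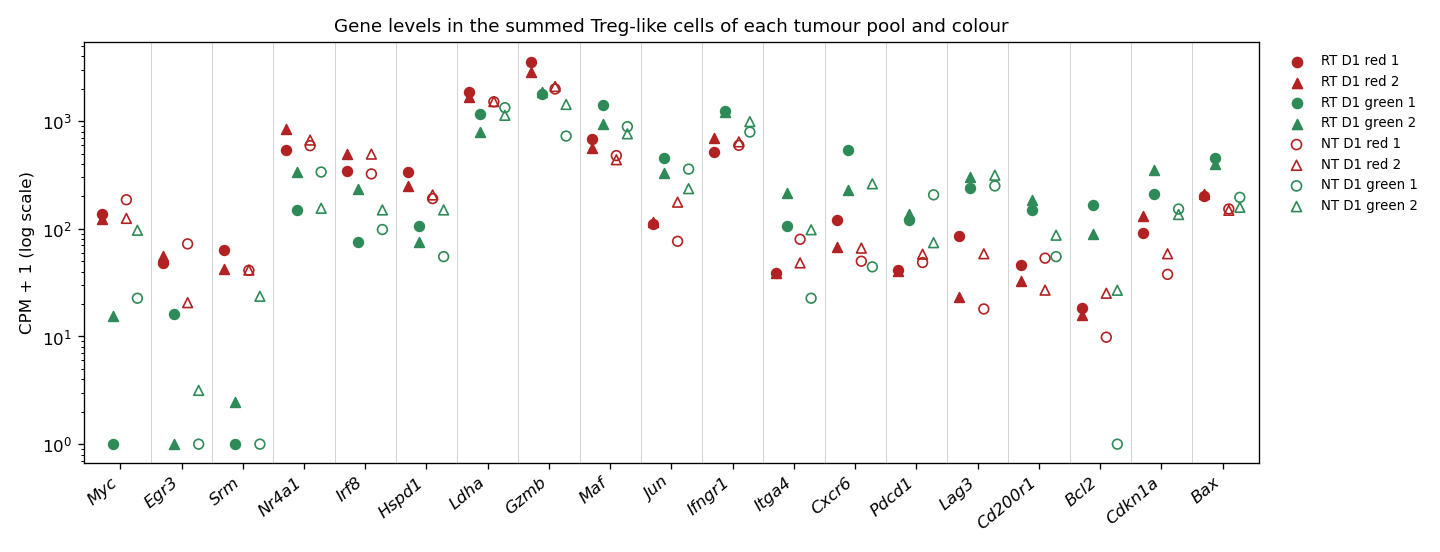
CPM plus 1 (log axis) of named genes in the Treg-like sums of each pool, red left of green, in RT D1 and NT D1; each point is 1 pool. Myc and Nr4a1 lie higher and Lag3, Bcl2 and Cxcr6 lower in both red sums of RT D1 than in both green sums, and Bax lies at 199 and 209.6 in red and 450.2 and 401 in green.

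Jun and Cxcr6 passed in each fit that left out 1 pool, while most other named calls were lost without RT D1 replicate 2. In that fit the red to green contrast rests on the 5 green cells of replicate 1. The remaining lists had 0 calls in Treg-like cells, among them cell cycle (20 measured, median 0.86), cytokines (13, -0.27), naive and lymph node homing (13, 0.61) and interferon-stimulated genes (29, 0.55). Of these interferon-stimulated genes 25 were positive (52.2% of all genes), with pool medians of 1.17 and 0.30. The NT D1 pool medians were -1.06 and -0.71. The difference from NT D1 had an unadjusted edgeR p under 0.05 in 21 of 29, against 3.45% of all genes. At the adjusted threshold 1 passed. Green replicate 1 rests on 5 cells in RT D1 and 6 in NT D1. Isg15, an interferon-stimulated ubiquitin-like protein, was at 656 and 604 CPM in red and 135 and 203 CPM in green sums and missed the threshold (1.78 ± 0.46, edgeR adjusted p = 0.0533). Ccr8, a receptor of tumour Treg cells, was at 288 and 433 CPM in red and 150.1 and 402 CPM in green sums (0.35 ± 0.26, edgeR adjusted p = 0.699), and overlapped.

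Myeloid transcripts were present in single Treg-like cells. C1qa, C1qb, C1qc, Apoe and Lyz2 together had 1 and 25 UMIs in red sums and 0 and 193 UMIs in green sums, and 187 of the 193 came from 1 of the 42 green cells of replicate 2. The whole list of 14 myeloid markers summed to 251 and 385 CPM in red and 623 and 858 CPM in green sums, with S100a8 and S100a9 at 0 in each. Without cells holding 10 or more UMIs of those 5 genes, the median of the p53 list in this class was -0.59. Myeloid sums of CD8-like cells were 159 to 182 CPM in the 4 RT D1 sums.

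CD4 conventional-like cells had 7 genes higher in red and 0 lower; at an unadjusted p under 0.05, 368 genes differed in either direction (4.91% of those tested). Il6ra, the interleukin 6 receptor, had 162 and 128 CPM in red and 10.9 and 26.8 CPM in green sums (2.50 ± 0.39), Nsg2 162 and 98.6 CPM in red and 43.5 and 12.8 CPM in green sums (2.60 ± 0.43), and Cd7 28.3 and 194 CPM in red and 0 and 10.7 CPM in green sums (4.18 ± 0.64). A single cell held 85 of the 124 Cd7 UMIs of red replicate 2.

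The naive and lymph node homing list had 13 of 14 measured genes positive in this class (51.4% of all genes), with a median of 0.77. Klf2, a transcription factor that drives S1pr1, was at 431 and 385 CPM in red and 261 and 110.2 CPM in green sums, and Tcf7 at 468 and 339 CPM in red and 250.2 and 136 CPM in green sums; neither passed (edgeR adjusted p = 0.307 and 0.42). Both genes kept all red sums above all green sums. Il10 and the histone gene H2ac4 rested on few red cells of replicate 2. Il10 had 8.50 and 400.5 CPM in red and 0 and 1.07 CPM in green sums, with 168 of its 256 UMIs of replicate 2 in 1 cell. H2ac4 had 100 of its 101 red UMIs in 1 cell. Il10 is counted also among cytokines (1 of 22) and Treg effector genes (1 of 21), and Il6ra among costimulation and cytokine receptors (1 of 26). Lists other than these 4 had 0 calls, among them cell cycle with 18 measured and a median of 1.5. Of these cell cycle genes 16 were positive, with pool medians of 1.44 and 0.78, against -0.04 and -2.09 in NT D1. The difference from NT D1 had an unadjusted edgeR p under 0.05 in 17 of 18, against 3.8% of all genes. In NT D1 the list summed to 1010 and 774 CPM in red and 1052 and 2651 CPM in green sums, so green replicate 2 stood apart. In RT D1 the cell cycle cluster held only 2 red and 1 green cells of this class. A single cell held 17 of 37 and 59 of 82 Mki67 UMIs in red sums and 2 of 3 and 29 of 63 in green sums. A TCR alpha segment, Trav14n-3, passed as well. The green replicate 1 sum of this class rests on 6 cells, 1 of which held 112 Il17a UMIs.

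**Figure D5:**
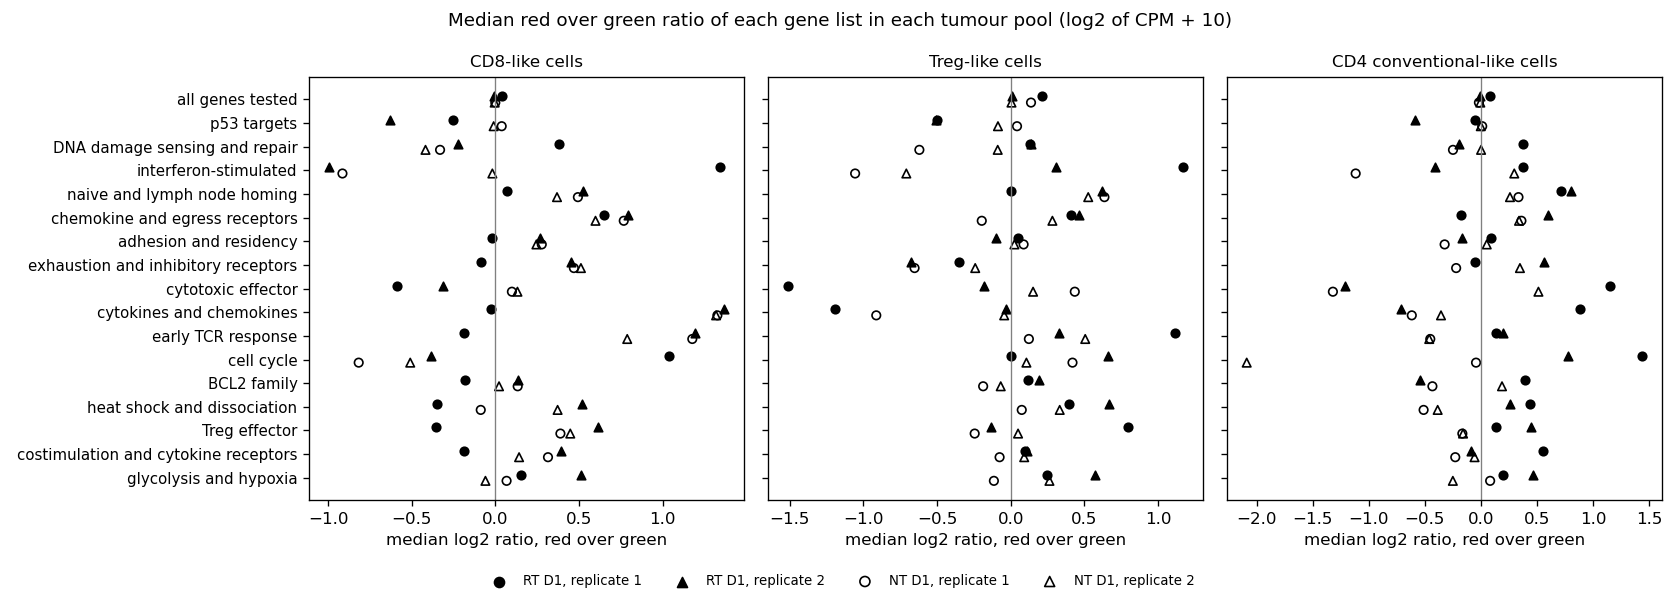
Median log2 ratio of red over green CPM plus 10 for each gene list (rows) in each pool of RT D1 and of NT D1, by class; each point is 1 pool. The p53 list lies at -0.25 and -0.63 in RT D1 CD8-like cells and at 0.04 and -0.01 in NT D1, while the interferon-stimulated list has opposite signs in the 2 RT D1 pools.

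The red to green difference in RT D1 was also tested against that in NT D1. In CD8-like cells 0 of 10407 genes passed in edgeR (403 at an unadjusted p under 0.05, 3.87%) and 1 passed in DESeq2. In Treg-like cells 13 passed (0.147%; 3.45% at an unadjusted p under 0.05) and in CD4 conventional-like cells 5 (0.0667%; 3.8% unadjusted). DESeq2 and edgeR with no replicate block each called 0 genes in these 2 classes. In Treg-like cells Themis, a TCR signalling adaptor, had 108.0 and 78.8 CPM in red and 915 and 251 CPM in green sums of RT D1, and 130.0 and 133 CPM in red and 75.8 and 88.4 CPM in green sums of NT D1 (difference -2.93 ± 0.48, edgeR adjusted p = 0.00856). Rsad2, an interferon-stimulated antiviral enzyme, had 136 and 61.1 CPM in red and 0 and 17.5 CPM in green sums of RT D1, and 10.2 and 37.5 CPM in red and 141 and 115 CPM in green sums of NT D1 (4.48 ± 0.84, edgeR adjusted p = 0.024). Themis was higher in green and Rsad2 higher in red after radiation, and each had the opposite order without it. The green sums of replicate 1 rest on 5 cells in RT D1 and 6 cells in NT D1. They held 61 and 7 Themis UMIs and 0 and 13 Rsad2 UMIs.

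TCR sequences served to ask whether a clone seen in red was also seen in green. Of the red cells with a beta chain, 2 of 130 (1.54%, 0.187 to 5.45) in replicate 1 and 2 of 266 (0.752%, 0.0912 to 2.69) in replicate 2 carried a beta chain found in green cells of the same pool, which numbered 33 and 207. In green cells of the other pools of the same well 0 red cells had a match, of 217 and 465 green cells searched, which allows up to 2.31% and 1.13%. NT D1 had 0 of 124 and 1 of 304 (0.329%) within the pool, and 0 of 124 and 2 of 304 (0.658%) against other pools. At these numbers of cells a difference between RT D1 and NT D1 was not detectable. Cells of repeated clones made up 31.5% and 31.6% of red pools and 9.09% and 23.2% of green pools, and the number of cells sampled differs between them.

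The largest clone of each pool is shown by its beta chain CDR3, the loop that meets peptide and MHC, because none of the 4 was shared between colours although the cells came from the same tumours.

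Replicate 1, red, TRBV17: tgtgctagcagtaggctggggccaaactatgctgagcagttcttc

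Replicate 2, red, TRBV19: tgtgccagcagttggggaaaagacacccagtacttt

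Replicate 1, green, TRBV20: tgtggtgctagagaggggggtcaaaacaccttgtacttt

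Replicate 2, green, TRBV19: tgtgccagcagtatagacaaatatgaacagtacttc

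These clones had 7 and 5 cells in red and 3 and 8 cells in green, all CD8-like. Their median p53 target levels were 30.3 and 15.4 UMIs per 10000 in the red clones and 51.5 and 41.4 in the green ones. The red clone of replicate 1 thus lay above the NT D1 mark of its class and that of replicate 2 below it, as most cells of that red pool did.

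The shared beta chains were 1 per replicate, and the alpha chains of their cells are set beside them. In replicate 1 the TRBV20 chain was carried by 2 red CD4 conventional-like cells and 1 green Treg-like cell.

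Replicate 1, shared beta chain: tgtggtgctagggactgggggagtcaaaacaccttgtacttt

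Replicate 1, alpha chain in red: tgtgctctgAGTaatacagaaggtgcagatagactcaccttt

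Replicate 1, alpha chain in green: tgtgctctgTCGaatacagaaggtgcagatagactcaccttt

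Both alpha chains use TRAV12-3 and TRAJ45 and differ at 3 of 42 bases, given in capitals. The capitals are 1 codon, and both codons encode serine, so the alpha loops differed in nucleotide sequence only. In replicate 2 the TRBV1 chain was carried by 2 red and 1 green CD4 conventional-like cells, and all 3 had the same alpha chain, TRAV4N-4 with TRAJ9.

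Replicate 2, shared beta chain: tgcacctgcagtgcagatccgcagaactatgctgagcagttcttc

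Replicate 2, shared alpha chain: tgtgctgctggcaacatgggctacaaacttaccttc

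The p53 target medians of the replicate 2 clone were 14.3 UMIs per 10000 in its red cells and 17.3 in its green cell, below the class mark in both colours. Cells with the shared beta chain of replicate 1 had 39.2 in red and 40.9 in green. Both lay above the mark of their class (31.8 for CD4 conventional-like, 30.4 for Treg-like cells).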

How the data were processed

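Single-cell 5′ RNA, hashtag and TCR libraries were sequenced from 4 wells. The 2 that held RT D1 gave the comparisons, with n = 2 tumour pools per condition, and all 4 entered the clustering and the all-pools alternative. The deposited matrices hold counts of UMIs per gene or hashtag and called barcode, from Cell Ranger 8.0.1 on mm39, and the deposited TCR tables hold counts of UMIs per contig, per the submitters' processing notes. Colours follow the names in the matrices. No doublet caller was run.

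Cells of all wells were clustered (scanpy 1.11.5, 2000 variable genes, 30 components, Leiden resolution 1) and clusters named from lineage markers; 3 clusters led by cell cycle, p53 or interferon genes were split by lineage markers cell by cell, as were naive cells. Counts were summed per pool, colour and class (at least 5 cells) and fitted with edgeR 4.0.16 (filterByExpr, TMM, glmQLFit, glmQLFTest) over 12 sums of NT D1, RT D1 and NT D3, with the pool as a block and a colour effect per condition, at a Benjamini-Hochberg adjusted p of 0.05. Red and green of a pool come from the same tumours, which gives the pairing; their deviations correlated at -0.0348 over genes in RT D1 CD8-like cells and at 0.123 in NT D1. Nothing in the labels says that pools were handled independently after collection. CPM are TMM-scaled, and pool ratios are log2 of CPM plus 10.

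Named genes were, per class, the 10 largest changes each way past the threshold with 1 direction in both RT D1 pools (TCR segment, ribosomal and mitochondrial genes left out), all list members called, and a fixed set of homing, TCR signalling, p53 and checkpoint genes. Members and the 16 lists were chosen with earlier results of these data known. Leaving out cells with 10 or more myeloid UMIs was added after seeing the data. Gene tests were checked on simulated counts. CDR3 sequences are those of the deposited contigs. Genes are given by matrix symbols, without coordinates. DESeq2 1.42.0 was an alternative. Some items that met the rule are not reported here.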

Additional observations from a re-analysis of the deposited data

Results flagged for a closer look

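Genes were singled out here because the red to green difference in RT D1 differed from that in NT D1 by the test of that difference in edgeR; the adjusted p of that test follows each. Single samples were not tested against their group, because no group had 4 or more samples.

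In Treg-like cells these were Themis (0.00856), Rsad2 (0.024), Cxcl2 (0.024), Gem (0.0281), Apoe (0.000106), Lyz2 (0.0164), C1qb (0.0164), C1qa (0.0281) and C1qc (0.0374). Cxcl2, a chemokine for neutrophils, had 138 and 39.8 CPM in red and 0 and 106 CPM in green sums of RT D1, and 0 and 1.73 CPM in red and 813 and 5.39 CPM in green sums of NT D1. Gem, a small GTPase, had 236 and 143 CPM in red and 15.0 and 67.1 CPM in green sums of RT D1, and 49.7 and 76.7 CPM in red and 152 and 152.0 CPM in green sums of NT D1. The green sums of replicate 1, of 5 cells in RT D1 and 6 in NT D1, held 0 and 75 Cxcl2 UMIs and 1 and 14 Gem UMIs. Apoe, Lyz2 and the C1q genes are macrophage transcripts: together they had 187 of 193 UMIs in 1 green cell of RT D1 replicate 2 and 378 of 392 UMIs in 1 red cell of NT D1 replicate 2. Without cells holding 10 or more such UMIs these 5 genes fell under the filter on low counts, Gem missed the threshold (0.053), and Cxcl2, Rsad2 and Themis passed (0.048, 0.048 and 0.0181).

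In CD4 conventional-like cells these were H2ac4 (0.0348), H2ac8 (0.0482) and Stmn1 (0.0482), 2 histone genes and a tubulin regulator of dividing cells. H2ac8 had 5.67 and 108 CPM in red and 0 and 5.35 CPM in green sums of RT D1, and 11.1 and 10.6 CPM in red and 4.24 and 224 CPM in green sums of NT D1. Stmn1 had 170.1 and 90.7 CPM in red and 10.9 and 35.3 CPM in green sums of RT D1, and 7.43 and 7.95 CPM in red and 8.48 and 269 CPM in green sums of NT D1. The NT D1 values of both genes thus turn on green replicate 2. The RT D1 values of H2ac8 turn on red replicate 2, with 2 and 69 UMIs in red and 0 and 5 in green sums. Stmn1 had 60 and 58 UMIs in red and 1 and 33 in green sums of RT D1. TCR segment and ribosomal genes that passed are not described.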

How the results depend on the processing

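Counts of called genes moved with the processing, and exchanging the colours of replicate 2 changed the sign of many named calls. The cause was not tested. For red against green in CD8-like cells (13 genes) the count was 51 with no replicate block, 1 with the RT D1 sums alone, 2 with all 12 pools, 82 with DESeq2, 8 with RLE size factors, 707 with no filter on low counts, 0 with label colours, 100 with a marker gate, 170 without the cell cycle, p53 and interferon clusters, 8 with the stricter hashtag call, 8 without cells with 2 beta chains, and 0 to 245 when 1 replicate was left out. In Treg-like cells (139) it was 23 with RT D1 alone, 211 with all pools, 62 with DESeq2, 264 with no filter, 0 with label colours, 314 with at least 10 cells per sum and 49 to 242 with 1 replicate left out. In CD4 conventional-like cells (7) it was 1 with no replicate block, 22 with RT D1 alone, 1 with DESeq2, 76 with no filter, 3 with label colours, 25 with at least 10 cells and 5 to 31 with 1 replicate left out.

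For the difference from NT D1, CD8-like cells (0) gave 1 with DESeq2, 116 with no filter, 2 without those clusters and 0 to 8 with 1 replicate left out. Treg-like cells (13) gave 0 with no replicate block, 27 with all pools, 0 with DESeq2, 54 with no filter, 0 with label colours, 1 with the marker gate, 32 without those clusters, 56 with at least 10 cells, 20 without cells with 2 beta chains, 6 without myeloid UMIs and 11 to 55 with 1 replicate left out. CD4 conventional-like cells (5) gave 0 with no replicate block, 9 with all pools, 0 with DESeq2, 3 with RLE, 34 with no filter, 3 with label colours, 13 with the marker gate, 0 without those clusters, 17 with at least 10 cells, 3 without cells with 2 beta chains and 4 to 18 with 1 replicate left out. RT D1 sums alone give no such difference. A pool left alone in its condition was assumed to vary like the others.

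Under label colours, which exchange red and green in replicate 2, the share differences became 4.94 points (CD8-like), -8.18 (Treg-like), 6.50 (CD4 conventional-like), -1.84 (naive CD4-like) and -0.843 (naive CD8-like); the marker gate gave 3.37 for naive CD8-like cells. Red cells sharing a clone with green averaged 1.15% by beta chain and 0.395% by alpha and beta nucleotide sequences. Called genes reversed to these log2 values: in CD8-like cells Il3 -0.13, Utf1 -1.16, Cd7 -0.41, Ccl4 -0.44, Rasgrp2 -0.22, Srm -0.37, Cd160 -0.23, Mir155hg -0.13 and Eea1 -0.065; in Treg-like cells Pus7 -1.47, Egr3 -2.01, Srm -1.26, Actg2 -1.74, Cdca7 -1.11, Gm30211 -1.55, Myc -0.97, Rapgef5 -0.99, Timm8a1 -1.02, Tsr1 -0.86, Nr4a1 -0.061, Nfkbid -0.026, Hspd1 -0.38, Ldha -0.22, Pcsk1 4.19, Lilrb4b 3.97, Def8 2.76, Gda 3.67, Slc37a2 1.67, Lag3 1.58, Bcl2 0.33, Plac8 1.92, Cdkn1a 0.41, Dcxr 0.47, Itga4 1.41, Pdcd1 0.75 and Cd200r1 1.1; in CD4 conventional-like cells H2ac4 -6.49, Il10 -6.02, Cd7 -2.61, Nsg2 -0.92 and Il6ra -0.55. None of these reversed values passed the threshold, and they give no firm direction. For some the standard error was larger than the value, as for Il3 (3.30), Ccl4 (2.40), Cd160 (1.51) and Nr4a1 (0.87). Among the named genes and alternatives, 1788 values kept their direction and side of the threshold, 296 missed it, 74 newly passed it and 41 reversed. Green replicate 1, with 35 cells, limits the depth, and naive CD8-like genes were not tested because too few green cells were present.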

Other observations

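Cluster 2, led by Klra6 and Eomes and holding mostly cells with more Cd8 than Cd4 transcript, was kept apart from the CD8-like and the naive CD8-like class. It raised 9 naive CD8-like and 0 CD8-like markers. Its 10 leading genes held 0 naive CD8-like markers and 1 of NK cells or innate lymphoid cells (Eomes), so it did not meet the naming rule. Its median p53 target levels were 11.5 and 12.0 UMIs per 10000 in red pools of RT D1 and 24.0 and 15.2 in green pools. Above the NT D1 mark of this cluster (20.4) lay 1 of 7 and 5 of 22 red cells and 2 of 3 and 10 of 24 green cells. Genes that sense and repair DNA damage, listed apart from the p53 targets, had 0 calls in each class, with medians of -0.14 over 19 measured genes in CD8-like, -0.24 over 17 in Treg-like and 0.05 over 13 in CD4 conventional-like cells.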
